A study of Mus musculus with 6 samples.

Results

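Long intergenic noncoding RNA (lincRNA) transcripts in the livers of mice given extra MAFG are described here. A transcript belonged to the set when the deposited table gave its Ensembl gene the biotype lincRNA, with 9 genes set aside (H19, Meg3, Rian, Mirg, Gm8883, C730036E19Rik, B930025P03Rik, 9030616G12Rik and 9030622O22Rik). This left 4179 transcripts of 3841 genes among the 68997 transcripts of the table, against 33826 transcripts of protein-coding genes. Livers came from wild-type mice (C57BL/6, diet NCD) that were 10 weeks old. Of these, 3 mice received an adenovirus with Mafg cDNA (Ad-MAFG), and 3 received Ad-CMV, the empty vector, which is named for the CMV promoter. All 6 mice thus carried an adenovirus, which reaches hepatocytes above all but is not restricted to them, and the number of mice is that of the labels, while a legend of the study gives another. The comparison asks which lincRNAs differ in level when MAFG is in excess.

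LincRNAs are transcribed by RNA polymerase II from their own genes, are usually spliced and polyadenylated, and mostly remain at low levels in a tissue. Some hold nuclear structures together, some act on chromatin or on the gene next to them, and some are hosts whose introns or exons give rise to snoRNAs or microRNAs, while most have no known role. MAFG is a small MAF protein without an activation domain of its own, so that it represses as a homodimer and activates or represses with a CNC or BACH partner. It binds the MAF recognition element (MARE) and the related antioxidant response element. In hepatocytes, small MAF proteins are known for their part in antioxidant defence and bile acid synthesis.

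To show the sequence upstream of lincRNAs that differed, RefSeq promoters (GRCm38.p6, from 250 bases before to 50 bases after a start site) were searched for the MARE palindrome TGCTGANTCAGCA, the antioxidant response element core TGACNNNGC and the MARE half-site TGCTGA, each on both strands. The half-site lies at either end of the palindrome, and the palindrome can also hold the core, so matches may overlap. Promoters were found for 116 of the 320 lincRNA genes that passed the filter on low values described below. The half-site occurred in 25 of their 133 promoters (18.8%) and in 6401 of all 32851 promoters of the table (19.5%). The core occurred in 15 of the 133 (11.3%) and in 12.4% of all, while the palindrome was in none of the 133 and in 2 of all. Of 7 promoters of genes at least 2-fold higher in Ad-MAFG, 2 held the core and 1 the half-site, and of 6 promoters of genes at least 2-fold lower, 0 held the core and 1 the half-site.

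Capitals mark matches in the following promoters, which belong to lincRNAs described below. The first pair are those with a core match among genes higher in Ad-MAFG, at chr4:141278189-141278488 (plus strand) and chr16:30008417-30008716 (plus strand). They are followed by the gene with the largest positive difference, at chr4:38855434-38855733 (minus strand, no match), by 1810044D09Rik, lower in Ad-MAFG, at chr6:91440737-91441036 (plus strand, no match), and by AW112010, an abundant lincRNA lower in Ad-MAFG, at chr19:11050517-11050816 (minus strand).
Gm13056: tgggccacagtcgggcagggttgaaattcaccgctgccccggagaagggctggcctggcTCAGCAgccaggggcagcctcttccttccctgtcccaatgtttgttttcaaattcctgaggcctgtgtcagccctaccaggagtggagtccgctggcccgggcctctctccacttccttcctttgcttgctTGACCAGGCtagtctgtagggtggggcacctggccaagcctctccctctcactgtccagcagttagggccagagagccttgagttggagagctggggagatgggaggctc
4632428C04Rik: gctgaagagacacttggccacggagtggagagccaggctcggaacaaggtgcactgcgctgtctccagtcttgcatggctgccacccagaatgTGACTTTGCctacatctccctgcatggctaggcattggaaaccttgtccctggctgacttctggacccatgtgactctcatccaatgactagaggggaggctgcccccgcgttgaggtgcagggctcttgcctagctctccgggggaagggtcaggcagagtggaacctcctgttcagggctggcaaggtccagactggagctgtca
Gm12381: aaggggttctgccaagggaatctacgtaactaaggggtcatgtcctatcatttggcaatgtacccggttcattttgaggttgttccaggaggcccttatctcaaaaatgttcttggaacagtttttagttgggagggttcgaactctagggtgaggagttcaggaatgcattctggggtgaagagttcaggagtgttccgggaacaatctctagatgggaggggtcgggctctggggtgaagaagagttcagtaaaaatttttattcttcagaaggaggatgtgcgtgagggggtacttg
1810044D09Rik: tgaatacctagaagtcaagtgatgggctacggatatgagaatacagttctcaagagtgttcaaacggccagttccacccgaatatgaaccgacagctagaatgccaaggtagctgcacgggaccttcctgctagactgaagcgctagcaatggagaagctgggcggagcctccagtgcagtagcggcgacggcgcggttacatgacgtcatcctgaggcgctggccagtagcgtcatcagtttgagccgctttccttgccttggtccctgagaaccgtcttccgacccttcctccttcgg
AW112010: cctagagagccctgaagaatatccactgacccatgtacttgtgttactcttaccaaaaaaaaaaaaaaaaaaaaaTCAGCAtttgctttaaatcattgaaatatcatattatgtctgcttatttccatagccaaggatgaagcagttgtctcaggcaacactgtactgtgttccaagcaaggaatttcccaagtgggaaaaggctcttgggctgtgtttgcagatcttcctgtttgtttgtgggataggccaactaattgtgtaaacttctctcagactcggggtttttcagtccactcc
In Gm13056 the core began 60 bases and the half-site 191 bases before the start site, in 4632428C04Rik the core began 157 bases before it, and in AW112010 the half-site began 175 bases before it.

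The table holds 1 FPKM value (fragments mapped to a transcript, scaled to its length and to the depth of the library) for each group and 0 columns of values per mouse, so that depth, SD and a test over mice could not be had. A difference below is log2((Ad-MAFG FPKM + 0.1)/(Ad-CMV FPKM + 0.1)), which understates the change of transcripts at low levels, and it has no replicate check. Each of 68997 locus numbers was listed with a single transcript, so a gene can be present only as a minor form. Hepatocyte markers marked the tissue as liver, with a summed level of 7030 FPKM in Ad-MAFG and 8090 FPKM in Ad-CMV over 8 genes, 7 of them at 0.5 FPKM or more. Markers of other cells were also present, with 157 FPKM in Ad-MAFG and 84.5 FPKM in Ad-CMV for stellate cells (5 of 5 genes), 46.0 FPKM in Ad-MAFG and 14.4 FPKM in Ad-CMV for cholangiocytes (3 of 4 genes, Krt7 at 0) and 115 FPKM in Ad-MAFG and 86.1 FPKM in Ad-CMV for Kupffer cells and macrophages (6 of 6 genes). Endothelial markers had 26.9 FPKM in Ad-MAFG and 32.6 FPKM in Ad-CMV (4 of 4 genes), and erythroid ones 698 FPKM in Ad-MAFG and 530 FPKM in Ad-CMV (3 of 3). T, NK and B cell markers had 3.35 FPKM in Ad-MAFG and 3.45 FPKM in Ad-CMV (2 of 5). Pancreas markers had 20.4 FPKM in Ad-MAFG and 43.2 FPKM in Ad-CMV (1 of 4). These sums rest on a few abundant members that did not all differ in the same direction. Among macrophage markers Marco had 2.10 FPKM in Ad-MAFG and 13.6 FPKM in Ad-CMV, while Lyz2 had 49.9 FPKM in Ad-MAFG and 26.1 FPKM in Ad-CMV, among hepatocyte markers Alb had 5603 FPKM in Ad-MAFG and 4310.4 FPKM in Ad-CMV, and among stellate markers Dcn had 54.2 FPKM in Ad-MAFG and 53.7 FPKM in Ad-CMV. Fewer cells of a type and less RNA per cell cannot be told apart in bulk liver, and the part of these cells in the lincRNA differences was not tested.

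Most lincRNA transcripts of the table were listed at 0. Of the 4179 transcripts, 2773 were listed at 0 in both groups, 127 at 0 in Ad-MAFG alone and 264 at 0 in Ad-CMV alone. A listed 0 is not read here as absent RNA. All 2773 transcripts at 0 in both groups were on the annotated strand of their gene, and of their 2768 genes, 58 had another transcript above 0 and 30 had one past the filter described next, such as Snhg20 and Mir17hg, whose values on the other strand are given below. Coding genes abundant in liver could also be listed near 0, among them Ttr (transthyretin), with 0.230 FPKM in Ad-MAFG and 0.000307 FPKM in Ad-CMV. No transcript at 0 in 1 group exceeded 0.417 FPKM in the other, so none was treated as gained or lost. The remaining 1015 were above 0 in both groups, and 361 transcripts of 320 genes reached a mean of 0.5 FPKM over both groups (8.64% of the set, against 13965 or 41.3% of protein-coding transcripts). In 70 of these 361, 1 group alone was under 0.5 FPKM, so that they passed through their higher group, and 23 of the 46 transcripts past 2-fold below are among those 70.

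The lincRNAs past the filter were scarce compared with mRNAs. Their median level was 1.07 FPKM in Ad-MAFG and 1.12 FPKM in Ad-CMV, while that of protein-coding transcripts was 1.78 FPKM in Ad-MAFG and 1.76 FPKM in Ad-CMV. A mean under 2 FPKM was found for 262 lincRNA transcripts (72.6%) and for 54.7% of protein-coding ones. Only 22 lincRNA transcripts reached 10 FPKM. In a later annotation (GENCODE M21), 270 of the 320 genes were still lincRNAs, 29 had become antisense genes and 8 bidirectional promoter lncRNAs. Of the 270 genes, 17 had 1 exon and 132 had 2 exons in their longest form by exon number, and their longest transcript had a median of 1526 bases.

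Several of the most abundant lincRNAs lay across from a gene on the other strand. Gm30097 (chr3:82926665-83008488, minus strand) had 239.7 FPKM in Ad-MAFG and 377 FPKM in Ad-CMV, and its end overlaps Fgg, the gamma chain of fibrinogen, on the plus strand. Gm28872 (chr4:132270056-132270213, plus strand) had 201 FPKM in Ad-MAFG and 282 FPKM in Ad-CMV. It is a single exon of 158 bases that shares 134 bases with Rnu11, the U11 RNA of the minor spliceosome, which lies on the minus strand and was listed at 0 in both groups. Its sequence in GENCODE M21 is shown because reads of this gene and of U11 RNA come from the same bases.
Gm28872: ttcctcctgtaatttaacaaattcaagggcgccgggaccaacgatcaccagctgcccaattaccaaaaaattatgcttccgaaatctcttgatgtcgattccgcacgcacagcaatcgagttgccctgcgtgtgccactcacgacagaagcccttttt
Gm17300 (chr4:132351772-132353382, plus strand), with 209 FPKM in Ad-MAFG and 241 FPKM in Ad-CMV, spans the snoRNA genes Snora73a and Snora73b, again on the other strand. Gm26697 (chr2:126521202-126553662, minus strand) had 34.8 FPKM in Ad-MAFG and 67.3 FPKM in Ad-CMV and overlaps Slc27a2, a fatty acid transporter and acyl-CoA synthetase of liver. Thereafter came Neat1, the scaffold of paraspeckles, with 32.5 FPKM in Ad-MAFG and 27.7 FPKM in Ad-CMV, Gm26669 (across from Zfp36l1) with 31.1 FPKM in Ad-MAFG and 27.4 FPKM in Ad-CMV, and 1810014B01Rik (across from the chaperone gene Hsp90b1) with 25.9 FPKM in Ad-MAFG and 32.0 FPKM in Ad-CMV. Gm26582 (26.8 FPKM in Ad-MAFG and 29.8 FPKM in Ad-CMV) and Gm26584 (22.3 FPKM in Ad-MAFG and 32.6 FPKM in Ad-CMV, across from the amino acid transporter gene Slc7a2) completed, with Gm26745 below, the 10 highest. Differences among these 10 were between -1.23 and 0.23 on the log2 scale.

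The strand of the assembled transcript bears on these values. The library kit was strand-specific per the labels, and the strand was read from the order of locus numbers. Of protein-coding transcripts past the filter, 3722 of 13950 (26.7%) were assembled on the annotated strand of their gene, and of lincRNAs that overlap no coding gene, 63 of 215 (29.3%). Of lincRNAs that overlap a coding gene on the other strand, 118 of 130 (90.8%) were on their annotated strand, and hence opposite to the coding gene. Of the 22 most abundant lincRNA transcripts, 16 were of this antisense kind and all 16 were on their annotated strand. For 7 of the 16, the listed transcript of the overlapped coding gene had a mean under 0.5 FPKM, among them H3f3a (0.103 FPKM in Ad-MAFG and 0.0435 FPKM in Ad-CMV), a histone gene of nearly every cell. Reads of an antisense lincRNA and of its coding partner therefore cannot be told apart here.

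**Figure D1:**
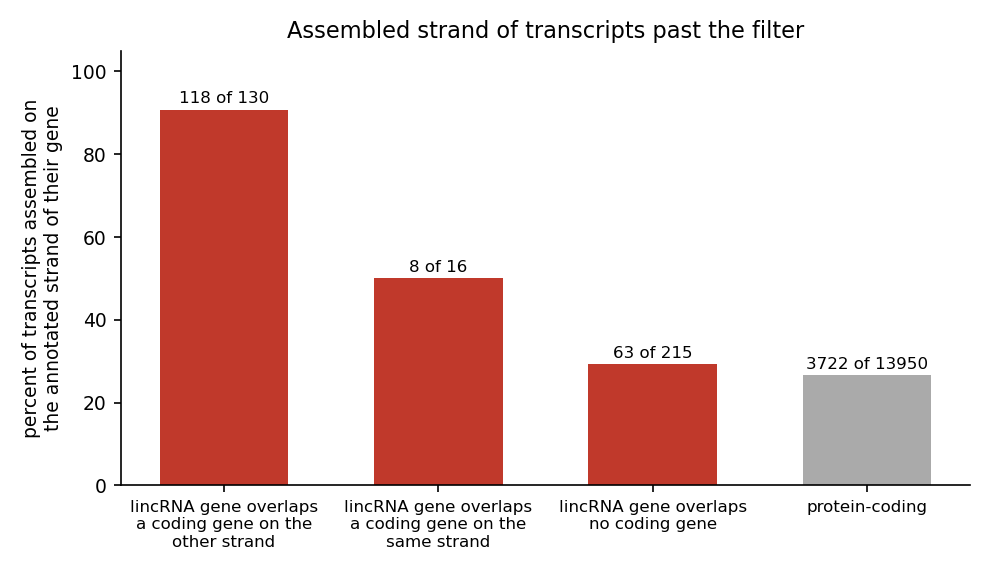
Bars give the percent of transcripts past the filter that were assembled on the annotated strand of their gene (vertical axis, from 0), with the number above each bar. Antisense lincRNAs stand at 90.8%, those clear of coding genes at 29.3% and protein-coding transcripts at 26.7%.

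Across the 361 lincRNA transcripts the differences centred near 0, and few were large. The median was -0.07 on the log2 scale, with quartiles of -0.44 and 0.22, against a median of -0.03 and quartiles of -0.27 and 0.24 for protein-coding transcripts. Within 1.5-fold lay 259 lincRNA transcripts (71.7%) and 79.5% of protein-coding ones. At least 2-fold higher in Ad-MAFG were 17 transcripts of 15 lincRNA genes (4.71%), against 892 of all 18409 transcripts past the filter (4.85%) and 4.26% of protein-coding ones. At least 2-fold lower were 29 transcripts of 26 lincRNA genes (8.03%), against 949 of all transcripts (5.16%) and 3.96% of protein-coding ones. The share of higher lincRNAs was thus near the background. That of lower ones was above it, but 23 of the 46 transcripts past 2-fold, both directions together, were under 0.5 FPKM in 1 group. Lower ones among these, such as Gm45044 with 0.190 FPKM in Ad-MAFG, passed the filter through Ad-CMV alone, and higher ones through Ad-MAFG alone. These shares have no replicate check, and no excess of lower lincRNAs is read from them. With the minimum set to a mean of 0.1 FPKM, 60 transcripts were higher and 56 lower of 685. Higher ones also outnumbered lower ones with no minimum, with 1 FPKM added and at 4-fold. At the other settings lower ones outnumbered higher ones, for example with 0.01 FPKM added (33 lower and 20 higher of 361). With 1 transcript per gene, 24 were lower and 15 higher of 320. The share over all transcripts was not computed at these settings.

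Lower transcripts were most frequent among scarce lincRNAs, where a transcript can pass the filter through 1 group alone. A transcript with a mean of 0.5 to 1 FPKM that is at least 2-fold higher can pass through Ad-MAFG alone, as Gm13387 (0.440 FPKM in Ad-CMV) did. One that is at least 2-fold lower can pass through Ad-CMV alone. Gm45044 (0.190 FPKM in Ad-MAFG) and Gm28347 (0.218 FPKM in Ad-MAFG) passed in that way. These counts are descriptions only, and the part of the filter in their direction was not tested. At a mean of 0.5 to 1 FPKM, 17 of 169 lincRNA transcripts were at least 2-fold lower (10.1%) and 7 were higher (4.14%), where protein-coding transcripts had 3.68% lower and 6.6% higher. At 1 to 2 FPKM, 8 of 93 were lower (8.6%) and 4 higher (4.3%), against 2.52% lower and 4.12% higher for protein-coding transcripts. From 2 to 5 FPKM the counts were 3 lower (5.08%) and 5 higher (8.47%) of 59, against 3.11% and 2.79% for protein-coding transcripts. At 5 to 20 FPKM, 0 of 26 were lower and 1 higher (3.85%), against 5.86% lower and 3.51% higher for protein-coding transcripts. At 20 FPKM or more, 1 of 14 was lower (7.14%) and 0 higher, against 14.5% and 2.86%.

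**Figure D2:**
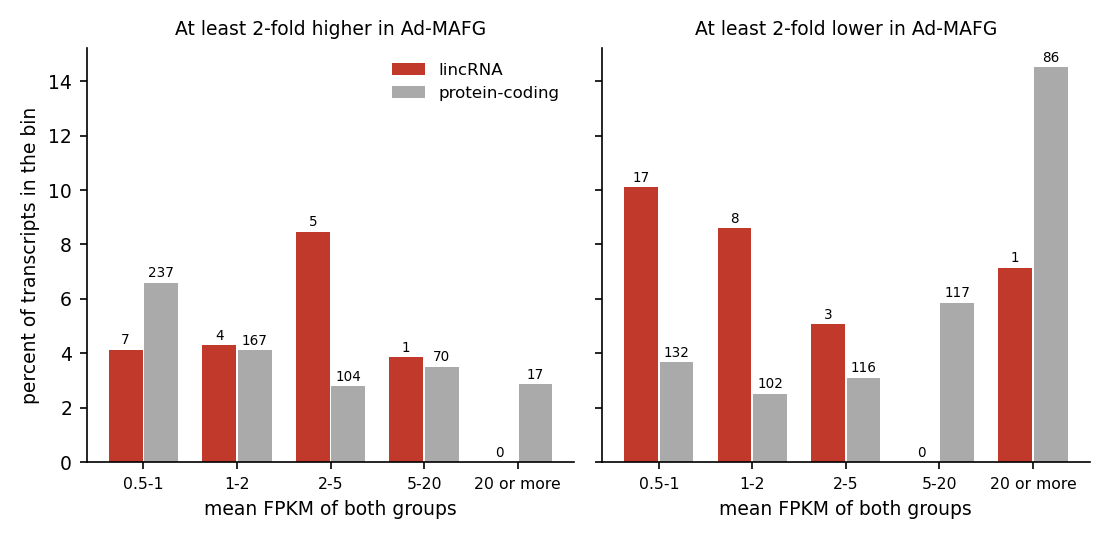
Percent of transcripts at least 2-fold higher (left) and lower (right) in Ad-MAFG, by mean FPKM of both groups, for lincRNA (red) and protein-coding transcripts (grey), with the number above each bar. Lower lincRNAs are most frequent at 0.5 to 1 FPKM (10.1%), lower protein-coding transcripts at 20 FPKM or more (14.5%).

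**Figure D3:**
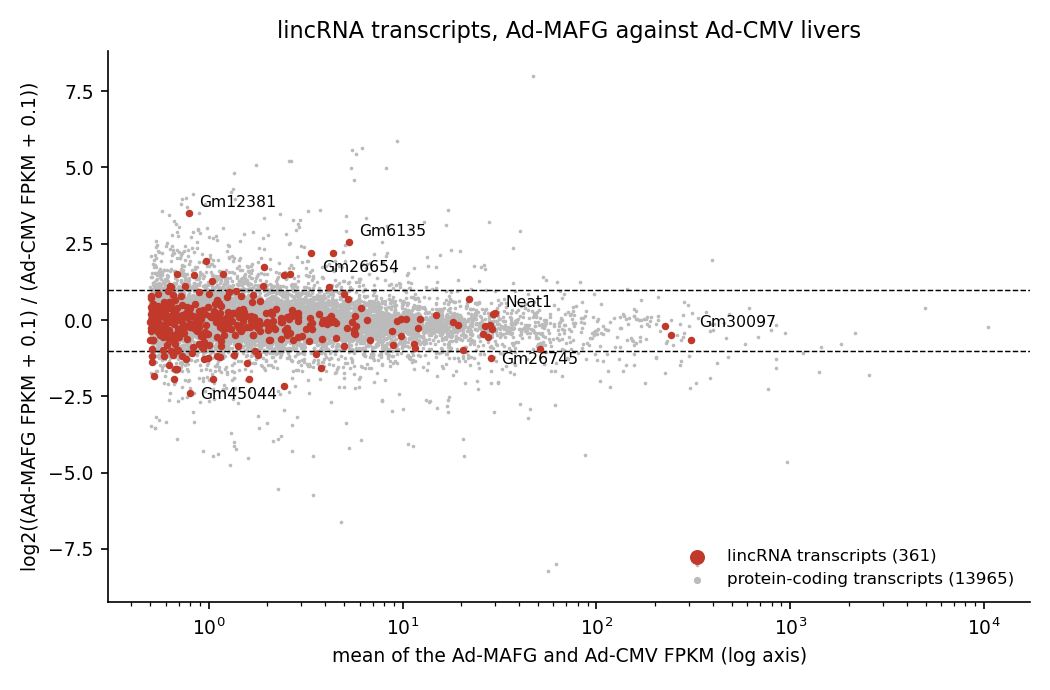
Each point is a transcript past the filter, with its mean FPKM on a log axis and its log2 difference (Ad-MAFG over Ad-CMV) on the vertical axis, in red for 361 lincRNA and in grey for 13965 protein-coding transcripts. Dashed lines mark 2-fold, and lincRNAs run from -2.39 (Gm45044) to 3.50 (Gm12381).

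Among lincRNAs higher in Ad-MAFG, Gm12381 (chr4:38571667-38855483, minus strand) had the largest difference. It had 1.54 FPKM in Ad-MAFG and 0.0445 FPKM in Ad-CMV, a log2 difference of 3.50, and lies 594812 bases from the nearest coding gene. Gm6135 (chr3:133789515-133791504, minus strand) was represented by 3 transcripts, and all 3 were higher. They had 9.13, 7.3 and 1.6 FPKM in Ad-MAFG, against 1.47, 1.5 and 0.343 FPKM in Ad-CMV, with log2 differences of 2.56, 2.21 and 1.94. Gm6135 was thus the most abundant lincRNA past 2-fold on this side, and it too stands alone, 244376 bases from Tet2, a DNA demethylase whose own transcript had 3.02 FPKM in Ad-MAFG and 2.58 FPKM in Ad-CMV. Gm26654 (chr3:96402381-96402948, plus strand) had 5.63 FPKM in Ad-MAFG and 1.15 FPKM in Ad-CMV (2.2 on the log2 scale), with no coding transcript past the filter within 50 kb.

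Further lincRNAs on this side are given with the coding gene that they overlap or lie next to. Gm26735 overlaps Sox4, a transcription factor gene of progenitor cells, on the other strand and had 3.01 FPKM in Ad-MAFG and 0.827 FPKM in Ad-CMV (1.75), where Sox4 was listed at 0.0335 FPKM in Ad-MAFG and 0.0245 FPKM in Ad-CMV. Gm26776 overlaps Ccdc3 and had 3.66 FPKM in Ad-MAFG and 1.25 FPKM in Ad-CMV (1.47), with Ccdc3 at 0.362 FPKM in Ad-MAFG and 0.0912 FPKM in Ad-CMV. Gm17281 overlaps Pacsin3 and had 1.06 FPKM in Ad-MAFG and 0.310 FPKM in Ad-CMV (1.5). Antisense position holds for these 3, so the limit on strand given above applies to them. 4632428C04Rik lies 42954 bases from Hes1, a Notch target gene, and had 1.29 FPKM in Ad-MAFG and 0.401 FPKM in Ad-CMV (1.47), whereas Hes1 had 3.67 FPKM in Ad-MAFG and 3.65 FPKM in Ad-CMV. Gm13056 had 3.96 FPKM in Ad-MAFG and 1.32 FPKM in Ad-CMV (1.52), with Epha2, an ephrin receptor gene, at 0.556 FPKM in Ad-MAFG and 0.483 FPKM in Ad-CMV. Gm13067 had 1.81 FPKM in Ad-MAFG and 0.570 FPKM in Ad-CMV (1.51), next to the receptor gene Gpr157 at 0.651 FPKM in Ad-MAFG and 0.628 FPKM in Ad-CMV, and Gm28730 on the X chromosome had 1.52 FPKM in Ad-MAFG and 0.574 FPKM in Ad-CMV (1.26), with Hprt, of purine salvage, at 4.82 FPKM in Ad-MAFG and 4.17 FPKM in Ad-CMV.

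Among lincRNAs lower in Ad-MAFG, Gm45044 (chr8:10884453-10891591, minus strand) had the largest difference. It had 0.190 FPKM in Ad-MAFG and 1.42 FPKM in Ad-CMV (-2.39), and it shares its assembled locus with B930025P03Rik, a lincRNA outside the set, which had 0.382 FPKM in Ad-MAFG and 1.73 FPKM in Ad-CMV. The nearest coding gene is Irs2, an insulin receptor substrate, 93090 bases away, whose listed transcript was under 0.1 FPKM in both groups. Gm11752 (chr11:119220160-119222473, plus strand) was listed on both strands, with 0.833 and 0.175 FPKM in Ad-MAFG and 4.06 and 0.874 FPKM in Ad-CMV (-2.16 and -1.83). Tbc1d16, the Rab GTPase-activating gene around it, had 0.788 FPKM in Ad-MAFG and 1.04 FPKM in Ad-CMV. Gm13203 (chr4:148713703-148716581, plus strand) was also lower on both strands, with 1.89 and 0.405 FPKM in Ad-MAFG and 5.74 and 1.13 FPKM in Ad-CMV (-1.56 and -1.28). Gm27216, 93796 bases from the nearest coding gene, had 0.516 and 0.647 FPKM in Ad-MAFG and 1.38 and 1.63 FPKM in Ad-CMV. The direction was the same for each listed transcript of these 3 genes. Gm11752 overlaps Tbc1d16 on the other strand, so the limit on strand given above applies to it.

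Further lincRNAs on the lower side were scarce. 1810044D09Rik (chr6:91440987-91441755, plus strand) had 0.603 FPKM in Ad-MAFG and 2.61 FPKM in Ad-CMV (-1.95), while Chchd4, of mitochondrial protein import, had 1.90 FPKM in Ad-MAFG and 1.66 FPKM in Ad-CMV. Gm44386 had 0.383 FPKM in Ad-MAFG and 1.72 FPKM in Ad-CMV (-1.92), with Tia1, an RNA-binding protein gene, at 1.73 FPKM in Ad-MAFG and 1.47 FPKM in Ad-CMV. A830052D11Rik (chromosome 18) starts head to head with Bin1, a membrane-bending protein gene, and had 0.288 FPKM in Ad-MAFG and 1.08 FPKM in Ad-CMV (-1.61), where Bin1 had 1.41 FPKM in Ad-MAFG and 0.982 FPKM in Ad-CMV. In none of these 3 pairs was the coding transcript lower. Pcbp1, the coding gene nearest to Gm44386 by annotation, was under the filter, with 0.162 FPKM in Ad-MAFG and 0.227 FPKM in Ad-CMV (-0.32). A830052D11Rik also overlaps Bin1 on the other strand, so the limit on strand given above applies to that pair. Gm37494 (0.281 FPKM in Ad-MAFG and 1.05 FPKM in Ad-CMV), Gm15409 (0.289 FPKM in Ad-MAFG and 0.968 FPKM in Ad-CMV) and Gm44787 (0.240 FPKM in Ad-MAFG and 0.777 FPKM in Ad-CMV) lay between -1.60 and -1.37, with differences of -0.02, -0.07 and 0.29 for the coding transcripts next to them, Zfp619, Katnal1 and Wsb1. Gm15409 overlaps another coding gene, Gm42791, on the other strand, so the limit on strand applies to Gm15409 as well.

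Gm26745 was the only lincRNA at 20 FPKM or more that passed 2-fold. This gene (chr5:123047373-123230871, minus strand) had 17.1 FPKM in Ad-MAFG and 40.1 FPKM in Ad-CMV (-1.23) in a transcript assembled on the plus strand, and 0.876 FPKM in Ad-MAFG and 1.32 FPKM in Ad-CMV (-0.55) in one on its own strand. Its interval holds Hpd, of tyrosine breakdown, listed at about 0 in both groups, and its nearest coding transcript, of the proteasome assembly gene Psmd9, had 4.33 FPKM in Ad-MAFG and 6.63 FPKM in Ad-CMV (-0.60). Most protein-coding transcripts were assembled opposite to their annotated strand. Reads of Gm26745 and of coding genes in its interval therefore cannot be told apart here. The cluster of Ms4a genes on chromosome 19 held a pair of lower lincRNAs. Gm28347 had 0.218 FPKM in Ad-MAFG and 1.11 FPKM in Ad-CMV (-1.93). AW112010, which in mouse macrophages is known to be translated from a noncanonical reading frame, had 13.7 and 8.05 FPKM on its 2 strands in Ad-MAFG and 27.1 and 15.2 FPKM in Ad-CMV (-0.98 and -0.91). Ms4a8a, the coding neighbour of both, had 0.983 FPKM in Ad-MAFG and 0.638 FPKM in Ad-CMV (0.55).

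**Figure D4:**
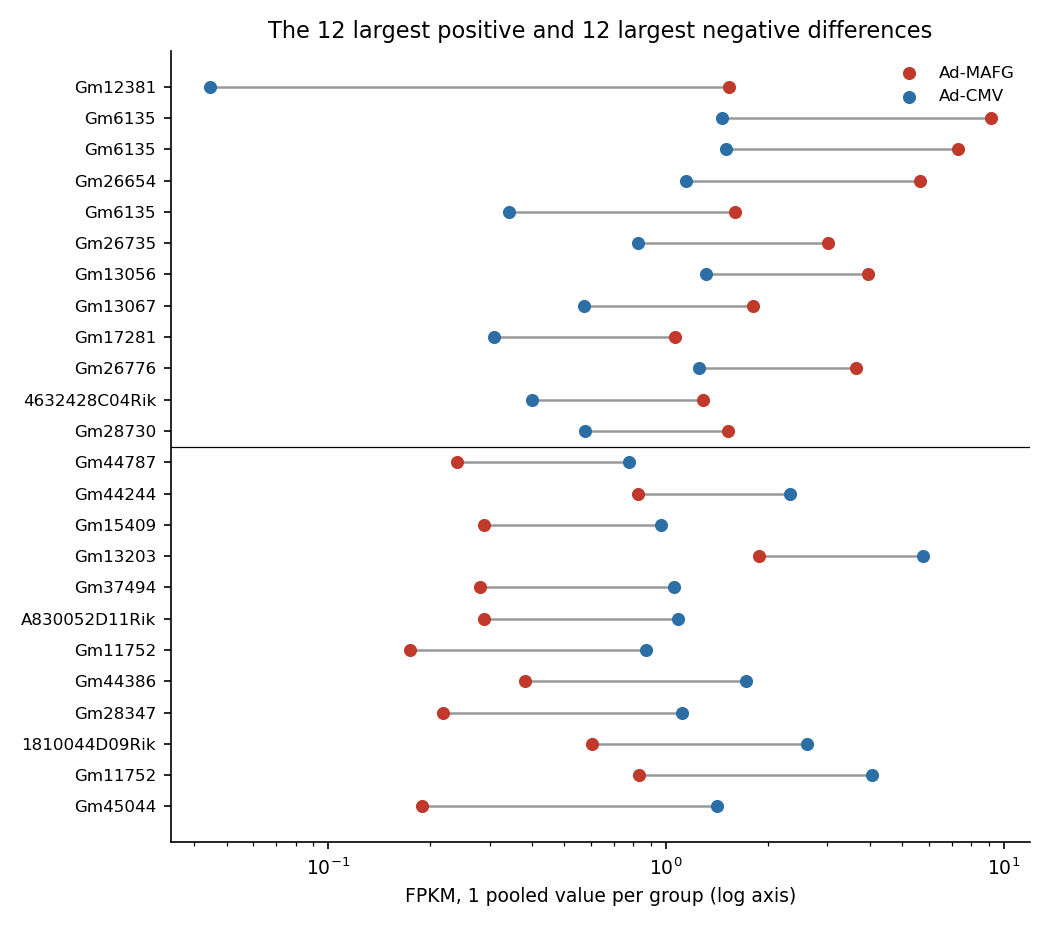
FPKM (log axis) in Ad-MAFG (red) and Ad-CMV (blue) of the 12 transcripts with the largest positive (above the line) and the 12 with the largest negative differences, ordered by difference. Most of the 24 are under 2 FPKM in both groups, and Gm6135 takes 3 of the upper places.

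AW112010 (-0.98) was the first transcript outside the lower threshold, and Gm12319 and Gm28818 (both -1.01) were the last inside it. On the higher side Gm15611 and Gm13710 (both 1.08) were inside and Gm37233 (0.96) and Gm45086 (0.95) outside. By chromosome, 5 of 25 transcripts on chromosome 2 and 4 of 15 on chromosome 3, of which 3 belong to Gm6135, were at least 2-fold higher and 0 lower. On chromosome 11, 4 of 15 were lower and 0 higher, on chromosome 6, 4 of 37 were lower and 0 higher, on chromosome 4, 3 were higher and 4 lower of 28, and on chromosome 17, 0 of 28 passed 2-fold in either direction. The shares over the whole table were 4.85% higher and 5.16% lower, and these small counts were not tested. Of 32 genes with more than 1 transcript past the filter, 26 had all of them on 1 side of 0, and the differences within a gene spanned a median of 0.31 and at most 1.01.

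Of the 44 transcripts of 6 lists of well-known lincRNAs, 16 passed the filter, and 0 of the 16 were past 2-fold, against 46 of all 361 (12.7%). Among members under the filter, Gm13391 of the immune list had 0.631 FPKM in Ad-MAFG and 0.112 FPKM in Ad-CMV (1.78), and AI427809 of the liver and metabolism list had 0.395 FPKM in Ad-MAFG and 0.0536 FPKM in Ad-CMV (1.69). Hosts of snoRNAs (5 transcripts past the filter, median -0.10) comprised Snhg6 with 12.3 FPKM in Ad-MAFG and 12.1 FPKM in Ad-CMV, Epb41l4aos with 5.35 FPKM in Ad-MAFG and 6.17 FPKM in Ad-CMV, Snhg12 with 4.94 FPKM in Ad-MAFG and 6.27 FPKM in Ad-CMV, Snhg20 with 4.37 FPKM in Ad-MAFG and 4.69 FPKM in Ad-CMV, and Snhg18 with 1.2 FPKM in Ad-MAFG and 0.593 FPKM in Ad-CMV (0.91). Nuclear and chromatin lincRNAs (3, median 0.23) were Neat1, given above, Malat1 of nuclear speckles, present only as a minor form with 0.703 FPKM in Ad-MAFG and 0.485 FPKM in Ad-CMV, and Jpx, an activator of Xist, with 0.982 FPKM in Ad-MAFG and 1.41 FPKM in Ad-CMV (-0.48). MicroRNA hosts (2, median -0.13) were Mir17hg with 1.63 FPKM in Ad-MAFG and 1.78 FPKM in Ad-CMV and Mir155hg with 0.813 FPKM in Ad-MAFG and 0.916 FPKM in Ad-CMV.

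LincRNAs linked to growth and p53 (4, median 0.26) were divided in direction. Pvt1 had 0.731 FPKM in Ad-MAFG and 0.363 FPKM in Ad-CMV (0.84), and Myc, the proto-oncogene 47186 bases from it, had 2.40 FPKM in Ad-MAFG and 1.54 FPKM in Ad-CMV (0.61). Trp53cor1 (lincRNA-p21, a p53 target) had 0.665 FPKM in Ad-MAFG and 0.340 FPKM in Ad-CMV (0.80). Lncpint, another p53 target, had 1.32 FPKM in Ad-MAFG and 1.61 FPKM in Ad-CMV with the status FAIL in the deposited file, and 1700020I14Rik had 1.33 FPKM in Ad-MAFG and 1.65 FPKM in Ad-CMV. Of the list of liver and metabolism, 2310001H17Rik passed with 2 transcripts, at 0.985 and 0.738 FPKM in Ad-MAFG and 1.86 and 1.09 FPKM in Ad-CMV (-0.85 and -0.51). Its neighbour Clec2d, a C-type lectin gene 20632 bases away, had 6.54 FPKM in Ad-MAFG and 15.4 FPKM in Ad-CMV (-1.22). Of the immune list, 0 transcripts passed the filter.

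To compare lincRNAs with their neighbours, the nearest protein-coding transcript past the filter within 50 kb was taken by deposited locus. A neighbour was found for 265 of the 361 transcripts, and 153 of these pairs (57.7%) differed in the same direction. Where the deposited loci overlapped, 78 of 118 pairs (66.1%) did so, and where they lay apart 75 of 147 (51.0%). Over the 265 pairs Pearson's r was -0.05 and Spearman's rho 0.11, with r at 0.04 once Gm44244 was left out, and these are descriptions across transcripts that share libraries. For the 118 overlapping pairs rho was 0.30, and for the 147 others -0.05. Of 24 lincRNA transcripts past 2-fold with a neighbour, 15 had it on the same side (62.5%), and only 2 of these 24 neighbours were past 2-fold as well.

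Those 2 pairs went different ways. Gm2061 starts head to head with Slc30a10, the manganese exporter gene of liver, and also overlaps it on the other strand. Gm2061 had 0.272 FPKM in Ad-MAFG and 0.749 FPKM in Ad-CMV (-1.19), and Slc30a10 was also lower, with 2.51 FPKM in Ad-MAFG and 6.07 FPKM in Ad-CMV (-1.24). The limit on strand given above applies to this pair, which does not show that both genes changed. Gm44244 (chr6:141866358-141875220, plus strand) had 0.824 FPKM in Ad-MAFG and 2.33 FPKM in Ad-CMV (-1.39), whereas Slco1a1, an organic anion transporter gene, had 10.9 FPKM in Ad-MAFG and 0.131 FPKM in Ad-CMV (5.57). Slco1a4, the coding gene nearest to Gm44244 by annotation, had 6.79 FPKM in Ad-MAFG and 6.87 FPKM in Ad-CMV.

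When the partner was the coding gene that a lincRNA overlaps on the other strand, 67 of 130 transcripts had one past the filter, and 46 of the 67 pairs (68.7%) differed in the same direction (rho 0.44, r 0.11, or 0.37 without Prr33). Partners were matched by gene symbol, so a coding gene with another symbol in GENCODE M21 was missed. D130020L05Rik (-0.13), which overlaps Ppp4r3a by M21 and had Smek1 (0.39) as its nearest coding transcript, is not among the 67. Pairs with the lincRNA at 2 FPKM or more numbered 32, of which 24 shared direction (75%, rho 0.62). Gm30097, given above, differed by -0.65 and Fgg by -0.79, with 425 FPKM in Ad-MAFG and 738 FPKM in Ad-CMV for Fgg. Gm16548 had 8.45 FPKM in Ad-MAFG and 14.6 FPKM in Ad-CMV (-0.78), and F5, coagulation factor V, had 23.2 FPKM in Ad-MAFG and 37.1 FPKM in Ad-CMV (-0.67). Gm26584 differed by -0.55 and Slc7a2 by -0.64, 1810014B01Rik by -0.30 and Hsp90b1 by -0.40. An exception was Gm44662, with 6.47 FPKM in Ad-MAFG and 3.94 FPKM in Ad-CMV (0.70) across from Hamp, the gene of the iron hormone hepcidin, at 439 FPKM in Ad-MAFG and 468 FPKM in Ad-CMV (-0.09). Since reads of the partners cannot be told apart, these pairs do not show that both strands changed.

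**Figure D5:**
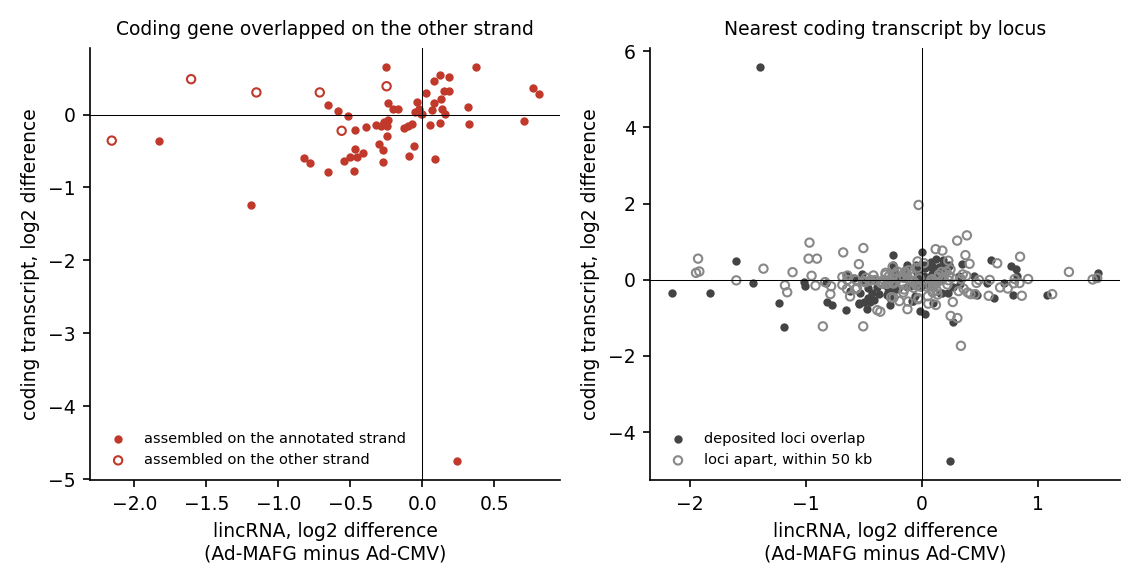
Log2 difference (Ad-MAFG minus Ad-CMV) of a lincRNA transcript on the horizontal axis and of a coding transcript on the vertical axis, for 67 pairs that overlap on opposite strands (left) and for 265 pairs with the nearest coding transcript by locus (right). Pairs differ in the same direction in 68.7% on the left and 57.7% on the right, and Slco1a1 (5.57) and Tnnt3 (-4.75, with Prr33) stand apart.

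By position, lincRNAs clear of coding genes made up 215 of the 361 transcripts. Of these 215, 13 were at least 2-fold higher (6.05%) and 21 lower (9.77%), and of 130 antisense ones 4 were higher (3.08%) and 7 lower (5.38%). The shares over all transcripts past the filter were 4.85% higher and 5.16% lower. These groups differ in level, with a median mean of 0.896 FPKM for those clear of coding genes and 1.7 FPKM for antisense ones. LincRNAs that start head to head with a coding gene, within 2000 bases, had 1 higher (1.39%) and 5 lower (6.94%) of 72, with a median of -0.22 against -0.04 for the other 289. The 18 transcripts that hold a small RNA gene on their own strand had 0 past 2-fold and a median of -0.03. Transcripts on the annotated strand had 6 higher (3.17%) and 11 lower (5.82%) of 189, at a median mean of 1.51 FPKM. Those on the other strand had 11 higher (6.4%) and 18 lower (10.5%) of 172, at 0.856 FPKM. None of these divisions was tested, since each group had a single value per transcript.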

How the data were processed

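Total RNA from 3 Ad-MAFG and 3 Ad-CMV livers was depleted of ribosomal RNA and sequenced as pairs of 76 bases from strand-specific libraries. Per the study's methods, the authors trimmed reads, removed ribosomal reads (Bowtie2 2.2.9), aligned with STAR 2.6.0c to mm10 (GRCm38), assembled transcripts with Cufflinks 2.2.1 and ran Cuffdiff. The deposited FPKM values are 1 per group, which the authors computed over its replicates, with 0 columns of per-sample values, so depth is unknown, only descriptions are given and no mouse could be left out. The deposited comparison columns (log2 fold change, test score, p-value, q-value and call) were not used. Mafg is not analysed here. Transcripts had to be above 0 in both groups with a mean of at least 0.5 FPKM, and 0.1 FPKM was added before the log2. The members and lists were chosen with earlier results of these data known. Named transcripts were the 12 largest differences on each side, the 10 with the highest mean, list members past the filter and coding neighbours of these, and others, including further antisense pairs, were chosen after their values were seen. Strands came from the order of locus numbers, and annotation from GENCODE M21 and RefSeq. Steps were tested on simulated data (Python 3.11.15, pandas 2.3.3, numpy 2.4.6). Alternatives are given in the closing section.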

Additional observations from a re-analysis of the deposited data

How the results depend on the processing

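Of the alternatives, 1 FPKM added before the log2 left 7 lincRNA transcripts at least 2-fold higher and 5 lower in Ad-MAFG, against 17 and 29 with 0.1 FPKM. A minimum mean of 0.1 FPKM gave 60 higher and 56 lower of 685 (8.76% and 8.18%), and a minimum of 1 FPKM gave 10 and 12 of 192 (5.21% and 6.25%). No minimum gave 62 and 58 of 1015 (6.11% and 5.71%), and no minimum but the status OK gave 45 and 48 of 506 (8.89% and 9.49%). The share over all transcripts was not computed at these settings. On the annotated strand alone 6 were higher and 11 lower of 189. At 1.5-fold 39 were higher and 63 lower, and at 4-fold 4 and 2. The share of lincRNAs that differed in the direction of their coding neighbour was 51.0% without transcripts whose locus overlaps a coding one, and 50.4% when the nearest neighbour that does not overlap was taken, against 57.7%. The cause of these shifts was not tested, and some settings also changed the number of transcripts kept. The median difference stayed between -0.09 and -0.01 under the 10 alternatives run for it. The share for antisense partners, a comparison chosen after seeing the data, was 68.7% in all, 75% and 62.9% at or above and under 2 FPKM, 72.1% (44 of 61) on the annotated strand of the lincRNA and 33.3% (2 of 6) on the other strand. No paired analysis was possible because the table has no value per mouse. Transcripts under 0.5 FPKM and the spread between mice cannot be assessed from these values.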
